A study of Mus musculus with 2 samples.

Results

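The miR-30 family comprises 7 annotated mouse miRNA genes, Mir30a, Mir30b, Mir30c-1, Mir30c-2, Mir30d, Mir30e and Mir30f, out of 2202 miRNA genes counted. They were taken by their symbols in the GENCODE M21 annotation (mm10). This rule uses no measured levels, but the members were chosen with earlier results of these data known. Levels came from the left cerebral cortex of adult B6CASTF1/J mice, the first-generation hybrids of C57BL/6J and CAST/EiJ, aged 18 to 20 months, from RNA below 30 nt. There was 1 group of 2 libraries, called replicates 1 and 2, and the labels name no treatment or engineered allele. The labels gave each library its own tissue record but 1 donor record for both, so the spread between them may be technical. The labels also conflict on sex, which was not used.

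A miRNA is cut from a hairpin precursor, which can yield a product from its 5p arm and another from its 3p arm. Bases 2 to 8 of the product, the seed, do most of the pairing with target mRNAs, so products with the same seed are grouped as a family. Members of miR-30 are found in many tissues and are known to restrain genes of autophagy and of the epithelial-to-mesenchymal transition, among them Becn1 for miR-30a. Their genes lie in pairs that can be transcribed together. A count here covers a whole hairpin, so the arms were not told apart.

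The sequences show what ties the family together and where its reads cannot be assigned to a locus. The RefSeq table (GRCm38.p6) held mature products for 5 of the 7 members. Mir30b and Mir30d had no entry. The 5p arms are shown because they share the seed, given in capitals.
miR-30a-5p: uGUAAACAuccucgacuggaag
miR-30e-5p: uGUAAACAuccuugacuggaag
miR-30c-5p, of Mir30c-1 and Mir30c-2: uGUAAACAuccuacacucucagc
miR-384-5p, of Mir384: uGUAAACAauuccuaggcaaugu
The product of Mir30f, with its own bases 2 to 8 in capitals, follows.
miR-30f: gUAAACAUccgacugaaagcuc

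All 4 members with a 5p arm in the table had the seed GUAAACA. Only 4 of 1674 distinct mature sequences in the table carried it (0.239%), and the 1 gene outside the family among their sources was Mir384. Counted from 1 at the 5′ end, miR-30a-5p and miR-30e-5p differed only by C13U. Each differed from miR-30c-5p at 5 of 22 compared positions, all between 13 and 20. The product of Mir30f held the same 7 letters at its bases 1 to 7, 1 base ahead of the other members, so its own bases 2 to 8 form another seed.

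The 3p arms fell into 2 seed groups, with seeds again in capitals.
miR-30a-3p: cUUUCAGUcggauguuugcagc
miR-30e-3p: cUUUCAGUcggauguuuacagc
miR-30c-1-3p: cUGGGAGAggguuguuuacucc
miR-30c-2-3p: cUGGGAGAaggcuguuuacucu
The arms of Mir30a and Mir30e differed only by G18A. Those of Mir30c-1 and Mir30c-2 differed at 3 of 22 positions, G9A, U12C and C22U.

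The 2 Mir30c hairpins are printed whole because they hold the same 5p arm. Capitals mark their longest shared stretch, 28 bases long.
Mir30c-1: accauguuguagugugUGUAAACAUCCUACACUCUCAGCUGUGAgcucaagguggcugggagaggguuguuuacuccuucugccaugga
Mir30c-2: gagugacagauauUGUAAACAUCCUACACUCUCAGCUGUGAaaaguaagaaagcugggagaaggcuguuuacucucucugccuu
The stretch holds all 23 bases of miR-30c-5p. Of the distinct mature sequences in the table, 59 (3.52%) lay in more than 1 hairpin, as miR-30c-5p does. Among the other pairs of the 4 hairpins in the table, the longest shared stretch was 18 bases, between Mir30a and Mir30e. The deposited tables list reads that map to several places on a line of their own, so a read lying wholly within the 28 bases has both Mir30c loci as exact matches. How many miR-30c-5p reads stand on that line was not tested.

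The libraries held 2381663 and 4436398 reads on the annotated strand of miRNA genes. Levels are given as CPM, the counts of a gene scaled to this total. Multimapping reads made up 35.6% and 44.8% of all reads in replicates 1 and 2, and unmapped reads 30.8% and 14.6%. The tissue was checked with marker miRNAs. The 8 neuronal loci summed to 90297 and 71445 CPM in replicates 1 and 2. Mir132 made up most of this sum and was lower in replicate 2 (69646 and 43349 CPM). The 2 Mir128 and 2 Mir138 loci were higher in replicate 2, and the 3 defining Mir124a loci had at most 4 reads in a library. Multimapping reads are outside these gene counts, and how many of them belong to the Mir124a loci was not tested. The low Mir124a counts are thus no measure of its level. Astrocyte loci summed to 18197 and 22896 CPM and oligodendrocyte loci to 4678 and 3496 CPM. The 2 loci of each of these lists went opposite ways. Mir23b was higher in replicate 2 (15707 and 21007 CPM) and Mir27b lower (2490 and 1889 CPM). Mir219a-2 was higher there (1600 and 1718 CPM) and Mir338 lower (3079 and 1778 CPM). The endothelial Mir126a had 17007 and 18138 CPM, and mural loci summed to 10855 and 5719 CPM. The part of these differences in the values below was not tested. The liver marker Mir122 lay at 58.4 and 75.96 CPM, and the 5 muscle loci summed to 14.3 and 19.2 CPM. Mir206 alone held 14.3 and 18.9 CPM of this muscle sum. Mir1a-1, Mir1a-2, Mir133a-1 and Mir133a-2 had at most 1 read in a library. How many multimapping reads belong to them was not tested, so their low counts are no measure of their level. In tissue, fewer cells of a type and less RNA per cell cannot be told apart.

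The 7 loci together had 40426 reads in replicate 1 and 79637 in replicate 2. These were 1.70% of miRNA reads (95% exact binomial interval 1.68 to 1.71) and 1.80% (1.78 to 1.81). The summed level was 16974 and 17951 CPM, a mean of 17462 ± 691 CPM (SD, n = 2). Intervals cover counting error only, since PCR copies are not independent molecules. Adding Mir384, the gene outside the family with the same 5p seed, raised the sum to 17800 ± 538 CPM. Mir384 itself had 445 CPM in replicate 1 against 229 in replicate 2.

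3 loci carried most of the family's reads that were assigned to a locus. Mir30a, Mir30d and Mir30e held 96.2% of these reads in replicate 1 and 96.5% in replicate 2. Mir30b, Mir30c-1 and Mir30c-2 held 3.85% and 3.51%, and Mir30f had none. Multimapping reads, with any that match both Mir30c loci, are outside these shares, and their part was not tested. The split between a high and a low set was the same in both libraries. The sets were cut from these same levels, so their lack of overlap is no separate support.

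**Figure D1:**
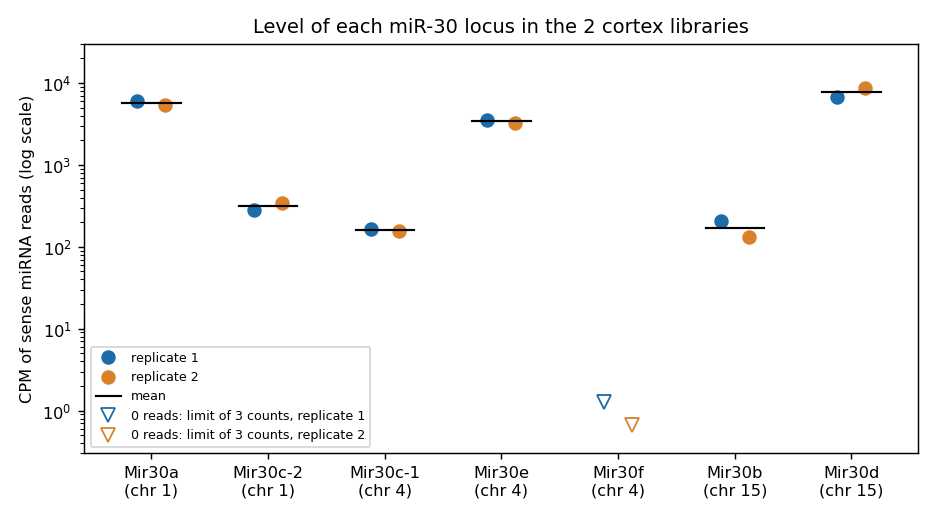
Level of each miR-30 locus in CPM on a log axis, with 1 point per library and a line at the mean; open triangles mark the level that 3 counts would give where no read was counted. Mir30a, Mir30d and Mir30e lie at 3235 CPM or more in both libraries, the 2 Mir30c loci and Mir30b between 133 and 340 CPM, and Mir30f at 0 reads.

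Mir30d (ENSMUSG00000065437.1), a miRNA studied in pancreatic beta cells and melanoma, was the most abundant member. It lies at chromosome 15, 68341208 to 68341289, minus strand, in an exon of the lincRNA gene Gm20732. It had 15898 reads in replicate 1 and 38464 in replicate 2, or 6675 and 8670 CPM, with a mean of 7673 ± 1411 CPM (SD, n = 2). That placed it at rank 28 of 2202 genes.

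Mir30a (ENSMUSG00000065405.3), known as a repressor of the autophagy gene Becn1, came next. Its hairpin is on the plus strand of chromosome 1, from 23272269 to 23272339, where no other annotated gene overlaps it. It had 14459 and 24024 reads, or 6071 and 5415 CPM, a mean of 5743 ± 464 CPM (SD, n = 2) and rank 38. Mir30d was above Mir30a in both libraries on the CPM scale. Per 100 bases of hairpin, Mir30a was above Mir30d in replicate 1 (8551 against 8140 CPM) and below it in replicate 2 (7627 against 10573 CPM), so the order of these neighbours was not settled beyond the spread.

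Mir30e (ENSMUSG00000065409.1) lies at chromosome 4, 120772606 to 120772697, minus strand, in an intron of Nfyc, which encodes a subunit of the CCAAT-binding factor NF-Y. It had 8513 and 14352 reads, or 3574 and 3235 CPM, a mean of 3405 ± 240 CPM (SD, n = 2) and rank 48. Per 100 bases of hairpin its mean was 3701 ± 261 CPM, below the 8089 ± 653 CPM of Mir30a and the 9357 ± 1720 CPM of Mir30d in both libraries.

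Mir30c-2 (ENSMUSG00000065567.1) led the low set. Its hairpin is on the plus strand of chromosome 1, from 23291701 to 23291784, within an exon of the lincRNA gene Gm27028. It had 679 and 1509 reads, or 285 and 340 CPM, a mean of 313 ± 38.9 CPM (SD, n = 2) and rank 146. Mir30c-1 (ENSMUSG00000065490.1), at chromosome 4, 120769534 to 120769622, minus strand, lies in an intron of Nfyc like Mir30e. It had 388 and 696 reads, or 163 and 157 CPM, a mean of 160 ± 4.26 CPM (SD, n = 2) and rank 175. Mir30c-2 was above Mir30c-1 in both libraries, also per 100 bases of hairpin (372 ± 46.3 against 180 ± 4.79 CPM). Both values count only what could be assigned to 1 of the 2 loci.

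Mir30b (ENSMUSG00000065476.2), studied with Mir30d in melanoma, lies at chromosome 15, 68337415 to 68337510, minus strand. 16 of its 96 bases overlap an exon of Gm26621, a noncoding gene on the same strand. It had 489 and 592 reads, or 205 and 133 CPM, a mean of 169 ± 50.8 CPM (SD, n = 2) and rank 174. It was above Mir30c-1 in replicate 1 and below it in replicate 2, so these neighbours in the order did not differ beyond their spread.

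**Figure D2:**
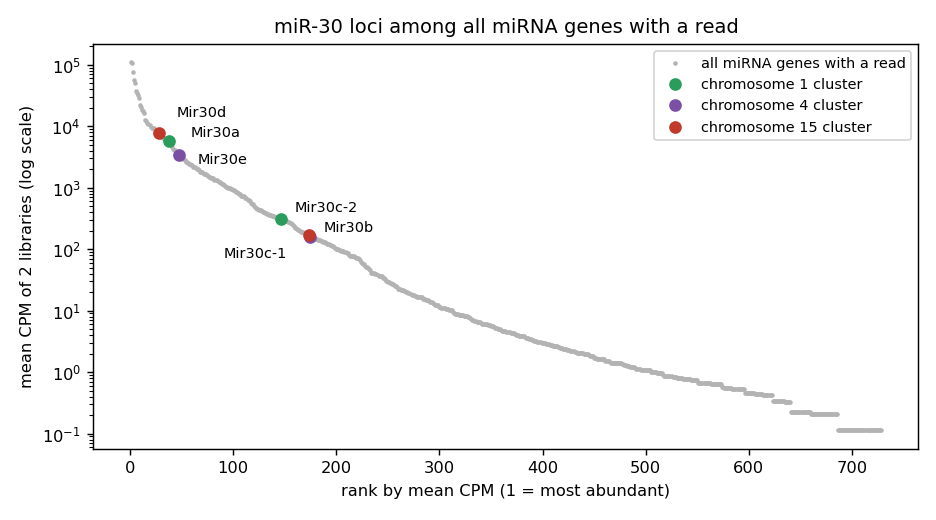
Mean CPM on a log axis against rank for the 728 miRNA genes with a read (grey), with the miR-30 loci coloured by genomic cluster. Mir30d, Mir30a and Mir30e sit at ranks 28, 38 and 48, and Mir30c-2, Mir30b and Mir30c-1 at ranks 146, 174 and 175.

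The loci were then compared by genomic cluster, to see how the family's reads divide over its 3 places in the genome. The chromosome 15 cluster, Mir30b and Mir30d with 3697 bases between the hairpins, took a share of family reads of 40.5% in replicate 1 (40.1 to 41.0, 95% exact binomial) and of 49.0% in replicate 2 (48.7 to 49.4). The chromosome 1 cluster, Mir30a and Mir30c-2 with 19361 bases between them, held 37.4% (36.97 to 37.9) and 32.1% (31.7 to 32.4). The chromosome 4 cluster, Mir30c-1, Mir30e and Mir30f, held 22.0% (21.6 to 22.4) and 18.9% (18.6 to 19.2). Its 2 hairpins on the minus strand are 2983 bases apart.

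The order of the clusters on the CPM scale was the same in both libraries. The levels were 7842 ± 1360 CPM (SD, n = 2) for chromosome 15, 6056 ± 425 CPM for chromosome 1 and 3565 ± 244 CPM for chromosome 4. The order of chromosomes 15 and 1 rests mostly on Mir30d and Mir30a. Per 100 bases of hairpin, Mir30a was above Mir30d in replicate 1 (8551 against 8140 CPM). Any multimapping reads of the Mir30c loci are missing from chromosomes 1 and 4, and their part was not tested. The intervals of the 2 libraries did not overlap for any of the 3 shares, with chromosome 15 higher in replicate 2 and the others higher in replicate 1. The 3 shares of a library make up all its family reads, so these are not separate differences. These intervals cover counting error only. A binomial test of the libraries that also allows for counting noise alone, described below, called 52.1% of all genes tested. No test between clusters was run.

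Within each cluster 1 locus was far above its neighbour, in both libraries. Mir30d exceeded Mir30b 32.5-fold in replicate 1 and 64.97-fold in replicate 2, a log2 difference of 5.52 ± 0.71 (SD, n = 2). Mir30a exceeded Mir30c-2 by 21.3-fold and 15.9-fold, a log2 difference of 4.20 ± 0.30 (SD, n = 2). Mir30e exceeded Mir30c-1 by 21.9-fold and 20.6-fold, a log2 difference of 4.41 ± 0.06. Per base of hairpin these log2 differences were 5.75, 4.45 and 4.36. All 3 exceeded the spread between the libraries, and the higher locus was the upstream hairpin of its cluster each time.

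The gap within a cluster was not equally steady. Between Mir30d and Mir30b it was smaller in replicate 1 by a log2 difference of -0.999 ± 0.089 (replicate 1 minus 2, counting SE). Between Mir30a and Mir30c-2 it was larger there by 0.42 ± 0.07, and between Mir30e and Mir30c-1 by 0.09 ± 0.09, within counting error. In 2 of the 3 clusters the low locus is a Mir30c copy, whose 5p arm lies at both places, and the part of this in the gap was not tested.

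**Figure D3:**
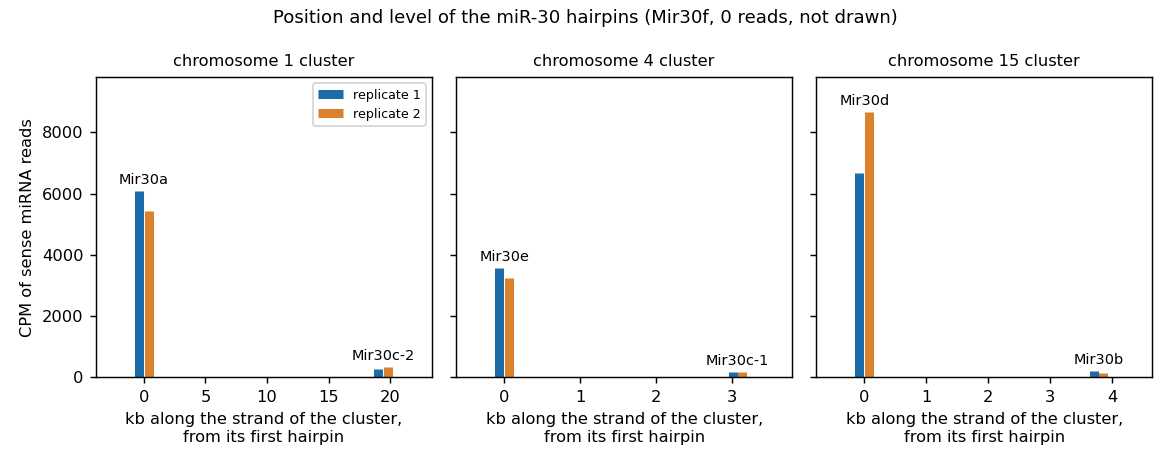
CPM of each hairpin (bars from 0, 1 per library) against its distance in kb from the first hairpin of its cluster, along the strand of the cluster. In each panel the hairpin at 0 kb is the tall one: Mir30a, Mir30e and Mir30d against Mir30c-2, Mir30c-1 and Mir30b.

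Mir30f (ENSMUSG00000105585.1) is annotated on the plus strand at the same bases of chromosome 4 as Mir30e, 120772606 to 120772697. The Mir30e hairpin is printed to show this, with the 22 bases complementary to the Mir30f product in capitals, of which 19 lie in the miR-30e-3p arm.
Mir30e: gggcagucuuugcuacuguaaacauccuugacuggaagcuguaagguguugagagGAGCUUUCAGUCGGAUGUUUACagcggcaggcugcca

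No read was assigned to the strand of Mir30f in either library, which allows a level of up to 1.26 CPM in replicate 1 and 0.676 CPM in replicate 2. Mir30e, on the other strand, was at least 2838-fold higher in replicate 1 and at least 4784-fold higher in replicate 2, against a limit of 3 counts per library. The opposite-strand column of Mir30f held 8513 and 14352 reads, exactly the gene-strand counts of Mir30e, and the opposite-strand column of Mir30e held 0 in both. These are the same reads counted for 1 gene and against the other. With both strands counted together Mir30e was listed at 0 in both libraries, since its reads then overlap 2 genes. They equal 4.31% and 3.73% of the reads on the ambiguous line of the both-strand counts.

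The libraries were compared locus by locus over the 472 genes that had 10 or more reads in total, with a two-sided exact binomial test given TMM-scaled library sizes and Benjamini-Hochberg adjustment. This test allows for counting noise alone and compares 2 libraries, not conditions. It called 52.1% of all genes tested, 24.6% higher in replicate 1 and 27.5% higher in replicate 2. Of the 6 members tested it called 5, with 3 higher in replicate 1 and 2 in replicate 2. Mir30f had no reads and was not tested.

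Mir30b differed most, with a log2 ratio (replicate 1 over 2) of 0.65 ± 0.09 (counting SE, binomial adjusted p = 1.37e-12). Mir30a was also higher in replicate 1, by 0.19 ± 0.02 (binomial adjusted p = 9.75e-36), as was Mir30e, by 0.17 ± 0.02 (2.16e-17). Mir30d was lower there, at -0.35 ± 0.01 (binomial adjusted p = 2.98e-149), as was Mir30c-2, at -0.23 ± 0.07 (0.00147). For Mir30c-1 the log2 ratio was 0.08 ± 0.09 and did not pass (binomial adjusted p = 0.488).

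Within clusters, Mir30b and Mir30d went opposite ways, as did Mir30a and Mir30c-2, while the ratios of Mir30e and Mir30c-1 had the same sign and differed by less than counting error. The median absolute log2 ratio was 0.21 over the 6 members and 0.47 over all genes tested. These medians were not matched for level. Genes entered the test from 10 reads in total, while each tested member had at least 388 reads in each library. When the spread between the libraries was allowed for, by edgeR's exact test with a biological coefficient of variation of 0.351, no member was called and none had an unadjusted p under 0.05, the smallest being 0.378 for Mir30b. That test called 0.424% of all genes tested, and 28 of the 472 had an unadjusted p under 0.05. Its dispersion was estimated on the 2 libraries that it compares, so it is no independent test.

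**Figure D4:**
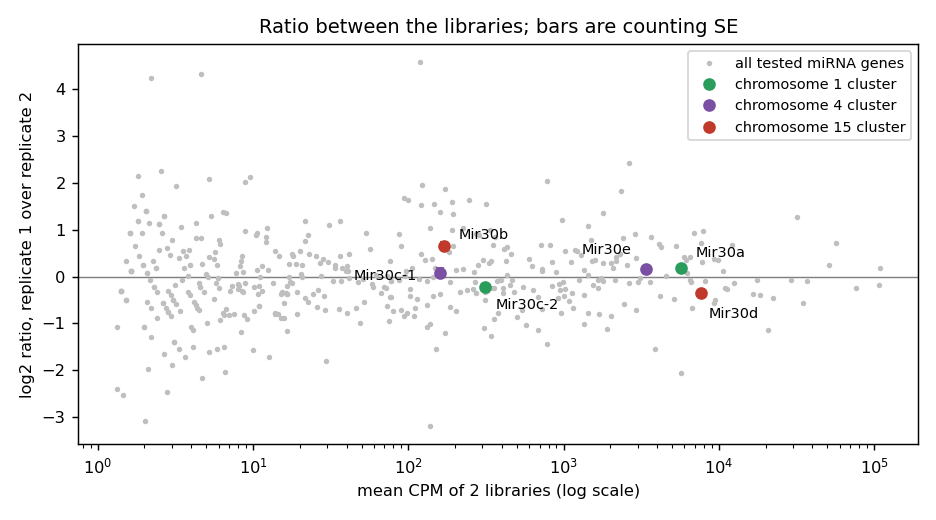
Log2 ratio of replicate 1 over replicate 2 against mean CPM (log axis) for 471 tested genes in grey and the 6 tested miR-30 loci coloured by cluster, with counting SE, which is about the size of the points or smaller; 1 tested gene without reads in a library is not drawn. The members lie between -0.35 and 0.65, and the 2 loci of chromosome 15 fall on opposite sides of 0.

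The summed level was set beside 3 other multi-locus families. The 4 miR-29 loci summed to 24536 ± 4962 CPM (SD, n = 2), the 3 miR-26 loci to 8011 ± 1258 CPM and the 6 miR-181 loci to 4179 ± 175 CPM. The miR-30 sum lay below miR-29 and above the others in both libraries. Mir30d held 39.3% and 48.3% of miR-30 reads in replicates 1 and 2. By comparison Mir29a held 88.8% and 92.6% of its family, Mir26b 96.7% and 99.2%, and Mir181c 41.5% and 31.6%. Among reads assigned to a locus, the leading locus thus held less of miR-30 than of miR-26 and miR-29 in both libraries. The order of miR-30 and miR-181 differed between libraries. These families also hold loci with shared sequence, and multimapping reads are missing from both the sums and the shares. Their part in these comparisons was not tested, and no test between families was run.

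The 3 genes outside the family closest to Mir30d in level, by Euclidean distance of log2(CPM + 1) over the 2 libraries, were Mir674 (distance 0.22, 8086 ± 467 CPM), Mir383 (0.32, 6661 ± 496 CPM) and Mir324 (0.38, 6488 ± 299 CPM). With 2 libraries this likeness is one of level alone.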

How the data were processed

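Small RNA libraries of 2 cortex samples were used. The authors deposited raw whole-number read counts per miRNA gene in 3 columns, for both strands together, for the strand of the gene and for the strand opposite. Their notes name build mm10 and annotation GENCODE M21. The aligner, settings and trimming: not given in the sources used here. The second of these, for the gene's own strand, was read as sense because it held 2381663 and 4436398 reads in replicates 1 and 2, against 197558 and 384880 in the third. The 4 summary lines at the top entered neither totals nor tests. CPM used sense reads at miRNA genes as the total. TMM factors were computed over the 472 genes with at least 10 reads in total in edgeR 4.0.16 (R 4.3.3), the binomial tests in scipy 1.17.1 (Python 3.11.15). With 1 group, neither a quasi-likelihood test between groups nor DESeq2 could be fitted. The code of the binomial test was checked on simulated counts. Sequences came from RefSeq (GRCm38.p6, the same assembly as mm10), positions from GENCODE M21, counted from 1. Members, lists and tests were chosen with earlier results of these data known. Named are all members, genes with their 5p seed, genes containing a member, the 3 genes closest in level to the leading member, and the leading member of each comparison family. Alternatives covered count columns, denominators, size factors, read minimums, pseudocounts, hairpin length and each library alone.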

Additional observations from a re-analysis of the deposited data

How the results depend on the processing

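Counting both strands together, which lists Mir30e at 0, lowered the summed family level to 15362 CPM and the chromosome 4 share to 1.14% (from 20.5%), and raised the shares of chromosome 1 to 43.3% and of chromosome 15 to 55.6%. No difference between Mir30e and Mir30c-1 could be computed there. Scaled to all reads of a library, a larger total, the summed level was 5767 CPM. With edgeR's exact test 0 members were called (0 higher in replicate 1 and 0 in replicate 2) and 2 of all genes, against 246 by the binomial test. The 5 member calls kept their direction under RLE size factors, library totals and read minimums of 1 and 20; with both strands together 4 loci were called, as Mir30e had no reads. Leaving out a library ends the comparison between libraries and kept the order of clusters and loci within them by read count. TMM over all genes, chosen after seeing the data, turned the ratio of Mir30c-1, which did not pass the test, to -0.017. Of 98 alternative values, 83 were labelled unchanged, 9 moved, 1 reversed, and for 5 loci the call was lost with edgeR's exact test. Unchanged meant a kept direction and call, a level within the spread, or a count of calls near the main count. By that last rule 4 member calls against 5 also entered as unchanged. A value from 1 library alone always lies within the SD of the 2, so its label was fixed in advance and shows nothing about robustness. The same holds, with both strands together, for the differences between Mir30d and Mir30b and between Mir30a and Mir30c-2. These loci had no opposite-strand reads, so both differences equal the main values. All such labels are among the 83. Counts per hairpin length were also chosen later. Reads that match both Mir30c loci limit what depth can show for them.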
